A study of Homo sapiens with 30 samples.

Results

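The comparison set HNF6 knockout cells against control cells at pancreatic endoderm (PE), by ATAC-seq, a method that cuts and tags DNA with a transposase wherever chromatin is open, so that read density follows accessibility. Both groups are HUES8, an established human embryonic stem cell line, differentiated in vitro towards the pancreas. The control is labelled wild type and the other line carries a knockout of HNF6, also named ONECUT1, with 3 samples of each and no other agent or allele in the labels. The 6 samples belong to a series of 30 that also covers ESC (undifferentiated cells), DE (definitive endoderm), GT (gut tube) and PP (pancreatic progenitors). The members are the autosomal regions that the authors listed as differing between the genotypes at PE, in 1 list per direction. They number 12515 of the 89929 regions in all lists of the series, with 7046 higher in control and 5469 in knockout cells. A further 162 listed regions on chromosomes X and Y were left out. The labels do not say how the knockout was made or from how many clones, so its effect and any other difference between the lines cannot be told apart. Nor do they tell whether the samples of a genotype were differentiated separately, and their spread may be technical. A region listed as higher in control is called a loss below, and one listed as higher in the knockout a gain.

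HNF6 is a transcription factor of the ONECUT family, which binds DNA through a cut domain and a homeodomain. In the embryo it acts early in the liver and pancreas, upstream of the factors that set up pancreatic progenitors and endocrine cells. Pancreatic endoderm is the stage at which gut tube cells take on pancreatic identity. Accessible regions include promoters and distal enhancers.

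Each listed region carries 3 control values, 3 knockout values, a -log10 p and a log2 ratio, all set by the authors. The unit of the values is not stated, and the depth of the libraries is unknown. Ratios are the log2 of the group means with 1 added to each, which understates large differences of low regions. The regions had been chosen for a difference in this same contrast, so the values below are descriptions without a test. For 1 region with 3 values per genotype, the smallest two-sided p of an exact permutation test is 0.1. Intervals are 95% Wilson intervals and cover counting error only. The cells' identity could not be checked against marker genes, because no gene is given beside a region. Positions are on hg19.

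The strongest loss in the knockout lay on chromosome 15, the chromosome that carries ONECUT1 in the RefSeq gene table. In 2 listed regions the knockout values fell almost to 0, and together these regions span 5550 bp, from 53072851 to 53078400. The left region, 53072851 to 53073450, had control values of 84, 177 and 214 and knockout values of 5, 0 and 0 in the authors' deposited table. The knockout mean was 1.05% of the control mean there and 0.0549% in the right region, 53075451 to 53078400. Nowhere else among 6914 losses whose control mean was 50 or more was the knockout mean below 7.42% of control. Values near 0 at this place were not limited to PE. Of the regions listed at other stages that overlap the right one, the ESC region kept 0.518% of control and the DE region 1.19% in the authors' deposited tables. The ESC region ran from 53075501 to 53082400, beyond the right end of the PE stretch. No region listed at GT or PP overlapped the right one. The values by themselves do not say whether DNA was missing from the knockout line or closed in it.

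Losses were also listed beyond those 2 regions. All 10 listed regions within 100 kb of the stretch, its own 2 included, were higher in control cells. The wider surroundings leaned the same way, with losses in 30 of 33 listed regions between 50000001 and 54774900, these 10 among them. On the whole of chromosome 15 losses made up 76.7% of listed regions. The 100 kb window was chosen after the values were seen. The authors' region numbers, which rise along each chromosome and are read here as a count of regions examined, run through 20 numbers in that window. Across the autosomes the lists held 2.15% of 328092 numbers as higher in control and 1.67% as higher in knockout cells. What the numbers count is not stated.

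Going right from the stretch, the knockout kept a larger share of the control signal after the first region. The region 53080951 to 53082550, 2.55 kb past the stretch, had control values of 613, 768 and 675 and knockout values of 55, 53 and 115 in the authors' deposited table, a knockout mean of 10.8% of control. From 53082751 to 53084350 the deposited values were 1091, 1040 and 1163 against 635, 482 and 561, or 50.9% of control. Both regions had separate groups, and they are next to each other in the list. At other stages, lost regions that overlap the first of them kept 0.518% at ESC, 1.88% at DE and 8.17% at PP. Those ESC and DE regions ended at 53082400 and 53081900, while the PE region ran on to 53082550 and the PP region to 53082500. A region listed as a gain at ESC began at 53082401. The shares thus cover different sequence, and whether values near 0 ended at different places between stages was not tested. Further right, 53087201 to 53089650 had 770, 969 and 690 against 298, 259 and 379 in the authors' deposited table, 38.5% of control. The next regions, starting at 53090251, 53096251 and 53140401, kept 43.2%, 62.1% and 35.7%.

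On the left the nearest listed region lay 34.2 kb away. That region, 53037751 to 53038650, had control values of 248, 202 and 192 and knockout values of 52, 67 and 102 in the deposited table, with a knockout mean of 34.4% of control. The outermost, 53025951 to 53026300, kept 37.8%. In none of the 10 regions did the 3 control values overlap the 3 knockout values, as in 79.5% of all PE losses.

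**Figure D1:**
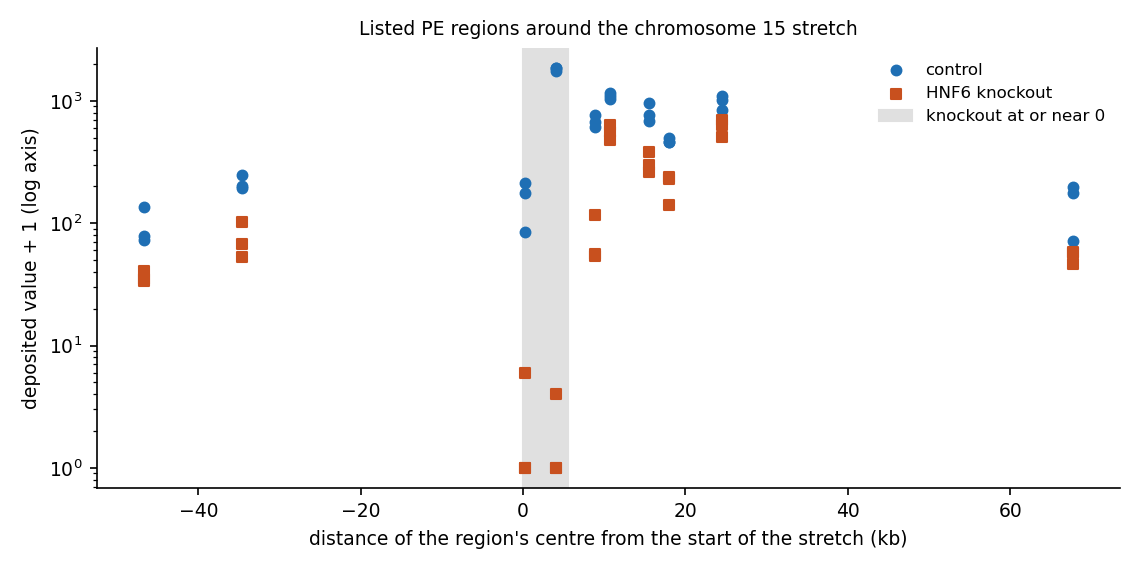
Deposited values plus 1 (log axis) of the 10 listed PE regions around the chromosome 15 stretch against the distance of each region's centre from its start in kb, 3 control values (circles) and 3 knockout values (squares) per region. Inside the grey stretch the knockout values are 0 to 5, and on both sides they lie below control by a smaller factor.

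Outside this locus, the control-higher regions with the highest -log10 p kept between 21.7% and 48.5% of their signal in the knockout. The region on chromosome 15 from 97628801 to 97629500 had control values of 440, 521 and 576 and knockout values of 106, 89 and 139 in the authors' deposited table, a log2 ratio of control over knockout of 2.19. On chromosome 17, 66577951 to 66578850 had 647, 575 and 715 against 205, 186 and 153 in the deposited table, a log2 ratio of 1.83. A region of chromosome 2, 4137901 to 4139150, had 732, 797 and 901 against 332, 220 and 252 in the same table, a log2 ratio of 1.59. In these 3 regions every control value was above every knockout value. Chromosome 11 held a weaker case, 115588501 to 115589800, with 1452, 1240 and 1858 against 832, 622 and 752 in the deposited table and a log2 ratio of 1.04.

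Large ratios also came from regions with little signal. The chromosome 15 region 35711901 to 35712250 had control values of 154, 92 and 64 and knockout values of 11, 4 and 8 in the authors' deposited table, a log2 ratio of 3.59. On chromosome 12, 5468101 to 5468350 had 73, 50 and 56 against 0, 0 and 16, so 1 knockout sample supplied all of that group's signal. The chromosome 14 region 77813751 to 77814050 had 72, 68 and 90 against 7, 12 and 3 in the deposited table. Separate groups were a condition for choosing these regions. They were narrow, and their values were low in control cells and lower still in knockout cells.

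Among the regions that gained accessibility, the highest -log10 p belonged to chromosome 19, 37742351 to 37743100. It had control values of 82, 76 and 65 and knockout values of 385, 414 and 460 in the authors' deposited table, a log2 ratio of knockout over control of 2.48. Most of the other high-scoring gains were smaller changes of regions that were already open in control cells. On chromosome 19, 8942501 to 8943300 had knockout values of 1106, 1024 and 934 and control values of 684, 351 and 416 in the deposited table, a log2 ratio of 1.08. Chromosome 2, 217535051 to 217536900, had 1363, 1129 and 1249 against 630, 656 and 735 in the same table, a log2 ratio of 0.89. On chromosome 3, 126193901 to 126195200 had 1545, 2106 and 1855 against 1207, 1046 and 1173 in the deposited table, a log2 ratio of 0.68. Only the first of these 4 rose from a low level, and in all 4 the groups were separate.

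Gains from near 0 were present but narrow. The largest ratio lay on chromosome 2, 74598251 to 74598550, with knockout values of 58, 94 and 65 and control values of 5, 8 and 5 in the authors' deposited table, a log2 ratio of 3.39. On chromosome 10, 129744251 to 129744500 had 61, 50 and 69 against 1, 8 and 7 in the deposited table, a log2 ratio of 3.27. On chromosome 22, 32042601 to 32042900 had 71, 59 and 99 against 12, 2 and 10, a log2 ratio of 3.10. In both directions all 10 regions with the highest -log10 p had separate groups. Separation was common in the lists, with 79.5% of all losses and 74.5% of all gains. At a -log10 p of at least 10 the shares were 93.7% and 87.6%.

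**Figure D2:**
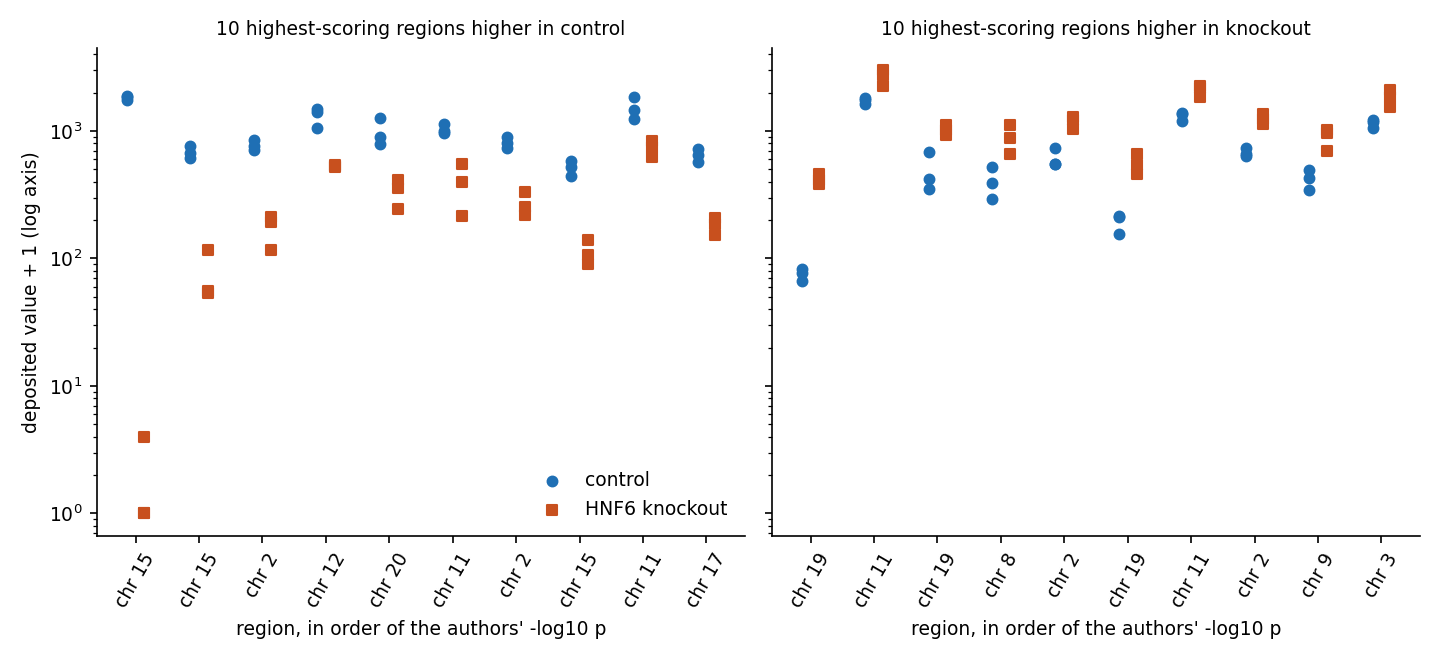
Deposited values plus 1 (log axis) of the 10 regions with the highest -log10 p in each direction, 3 control samples (circles) and 3 knockout samples (squares) per region, labelled by chromosome. The groups are apart in every region shown, and the differences on the left are mostly larger than those on the right.

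Losses in the knockout were larger than gains. The median log2 size was 0.94 in the 7046 control-higher regions, or 1.92-fold, and 0.60 in the 5469 knockout-higher ones, or 1.52-fold. The middle 50% of regions ran from 0.64 to 1.36 in the first list and from 0.44 to 0.94 in the second. A change of 2-fold or more was seen in 45.7% of the control-higher regions (3223; interval 44.6 to 46.9) and 22.03% of the knockout-higher regions (1205; 20.95 to 23.2). Over all stages 42.1% of control-higher and 46.6% of knockout-higher autosomal regions were that large. PE gains were thus smaller than those listed over the whole course, and PE losses were close to it. A difference of at most 0.5 on the log2 scale was found in 873 control-higher and 1932 knockout-higher regions.

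The groups did not overlap in 5602 of the control-higher regions (79.5%; 78.5 to 80.4) and 4076 of the knockout-higher ones (74.5%; 73.4 to 75.7). Over all stages, lists included that were chosen in the same way, the values were 78.5% and 78.3%. The coefficient of variation within a group had a median of 20.9% in control and 24.6% in knockout cells for control-higher regions, and of 18.4% and 15.5% for knockout-higher regions. The samples did not contribute evenly to the losses. The first control value was the lowest of its 3 in 50.1% of control-higher regions, with a median of 90.9% of its group mean. The second knockout value was the lowest of its 3 in 42.7% of them. The order of the values carries no sample label, and the part of either value in the results was examined only by leaving it out. The median log2 size of the losses was 1.00 without the first control value and 0.89 without the second knockout value. Over all values left out in turn it ran from 0.88 to 1.00.

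The regions that were lost and gained differed in width and level. Control-higher regions had a median width of 650 bp and knockout-higher ones of 900 bp. Per kb of width, control-higher regions had a median of 356 in control and 183 in knockout cells, and 1410 of them (20.01%) lay below 100 per kb in the knockout. Knockout-higher regions had a median of 485 per kb in knockout and 313 in control cells, and 524 of them (9.58%) lay below 100 per kb in control cells. Because the lost regions were narrower, they held 56.3% of all regions (55.4 to 57.2) but 49.1% of the listed base pairs.

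Direction followed size and level closely. Regions with a log2 size of at most 0.4 were higher in control in 26.7% of 1275 cases, and this share was 55.9% between 0.6 and 0.8, 70.6% between 1 and 1.5, and 83.4% of 518 between 2 and 3. Of the 28 regions above 3, 25 were higher in control cells. By mean value in the higher genotype, the control-higher share was 72.2% in the lowest of 5 equal groups of regions and 30.04% in the highest. The highest group had a median width of 1500 bp and a median log2 size of 0.40, the lowest 350 bp and 1.62. Among the listed regions, wide ones with high values thus mostly showed small gains in the knockout, and narrow ones with low values mostly larger losses. The mean value is per region and not per kb, so width enters into it. A low region needs a larger ratio to be listed, so size and level are not separate measures, and their part in the split was not tested.

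**Figure D3:**
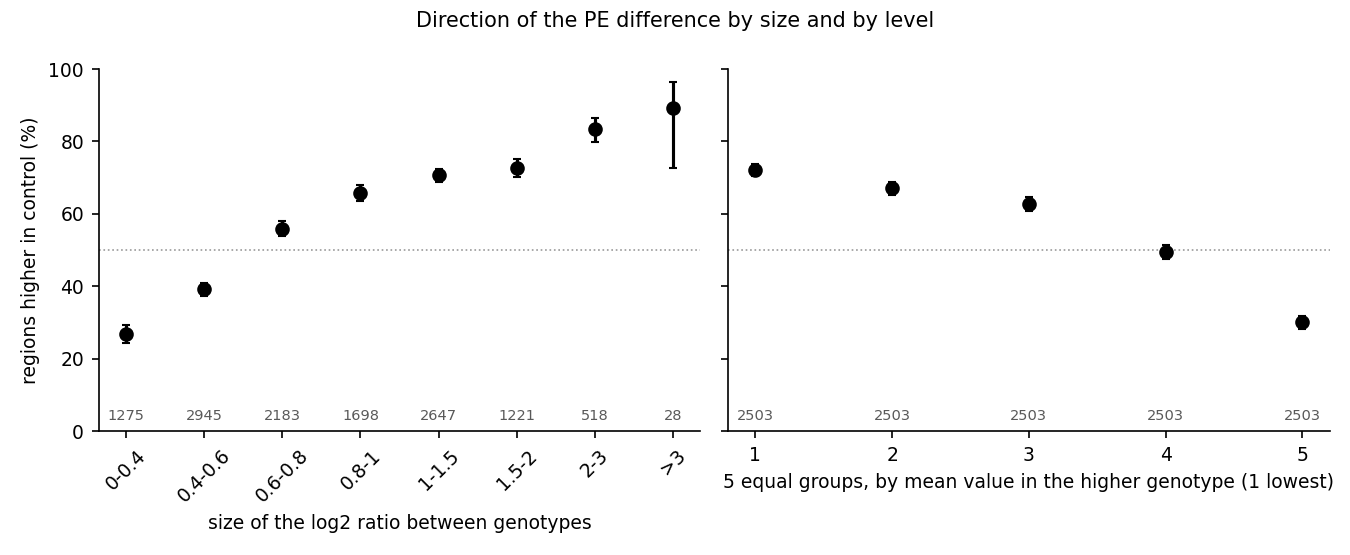
Share of PE regions higher in control (%) with its 95% Wilson interval, by log2 size of the difference (left) and by 5 equal groups of the mean value in the higher genotype (right, 1 lowest). Grey numbers count regions. The share is 26.7% in the smallest size class and 89.3% above 3, and it is 72.2% in the lowest and 30.04% in the highest group.

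The 2 directions were spread unevenly over the genome. Chromosome 18 had 308 losses and 34 gains, and on chromosome 12 the counts were 541 and 72. On chromosome 19 they were 123 and 369, on chromosome 9 195 and 495, and on chromosome 3 249 and 542. Control-higher regions made up 90.1% of the listed regions on chromosome 18 and 25% on chromosome 19, with 14 autosomes over 50% and 8 under it. The total listed differed less, between 3.14% and 5.15% of the numbers on an autosome. Control-higher regions took 0.83% to 4.63% of the numbers on an autosome and knockout-higher regions 0.51% to 3.21%. Over the 22 autosomes these 2 shares ran opposite to each other (Pearson's r -0.84, Spearman's rho -0.95), as a description of points that share the same 6 libraries.

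**Figure D4:**
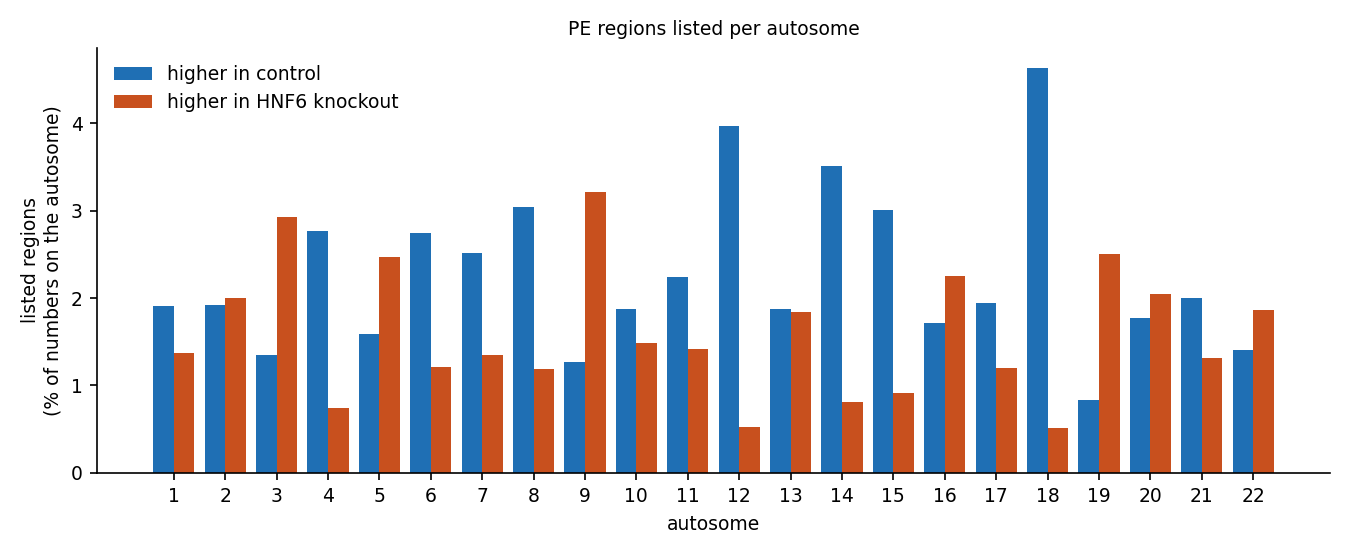
Percent of the authors' region numbers on each autosome that were listed as higher in control (left bars) or higher in HNF6 knockout cells (right bars) at PE. Chromosomes 12, 14 and 18 have mostly control-higher regions, and chromosomes 3, 9 and 19 mostly knockout-higher ones.

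Sizes were similar from chromosome to chromosome. The median log2 size stayed between 0.85 and 1.08 for losses and between 0.53 and 0.84 for gains on every autosome. Among changes of at least 2-fold the control-higher share was 93.1% on chromosome 18 and 40.5% on chromosome 19. How these chromosomes compared with all autosomes differed between stages. The control-higher share of all autosomal regions was 42.9% at ESC, 37.2% at DE, 27.1% at GT and 11.4% at PP, against 56.3% at PE. Chromosome 18 had a control-higher share of 20.1% at ESC, 64.2% at DE, 29.4% at GT and 6.91% at PP. For chromosome 12 it was 43.6%, 40.9%, 11.6% and 17.7% at the same stages, and for chromosome 19 it was 55.5%, 22.8%, 33.1% and 52.2%. Chromosome 18, far above the autosomes as a whole at PE, was above them at DE, near them at GT and below them at ESC and PP. Chromosome 19, far below them at PE, was below them at DE and above them at ESC, GT and PP. Whether copy number, scaling between libraries or base composition takes part in the leaning of whole chromosomes at PE was not tested.

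Some stretches of chromosomes held nearly 1 direction alone. In windows of 5 Mb, chosen after the data were seen, 253 held at least 20 listed regions. In 20 of these windows at least 90% of regions were higher in control cells, and in 6 at most 10% were, while 59 windows lay between 40% and 60%. Of the 20 windows, 11 lay on chromosomes 12 and 18, where the whole chromosome already had 88.3% and 90.1%. The other 9 included 1 on chromosome 20, between 15000001 and 19867750, with 33 losses of 36 regions on a chromosome at 46.5%. All 20 regions between 20000001 and 24717350 on chromosome 12 and all 21 up to 4803550 on chromosome 18 were losses. All 34 on chromosome 9 from 140000001 on were gains. On chromosome 3, between 45000001 and 49938450, 73 of 75 were gains, on a chromosome with a control-higher share of 31.5%. On chromosome 2, with a share of 49.01%, gains made up 55 of 58 regions from 240000001 on. The first 5 Mb of chromosome 19 held 12 losses and 109 gains.

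Neighbouring regions shared a direction most often at short gaps. At gaps of up to 10 kb 72.9% of 1654 neighbour pairs had the same direction, at 10 to 50 kb 68.5%, at 50 to 200 kb 64.7%, and beyond 200 kb 65.2% of 3438, so there was no further decline past 50 kb. The shares of each chromosome alone give 57.0% within 10 kb and 57.7% beyond 200 kb. Gains came in longer runs than losses when neighbours up to 50 kb apart were joined, with 16 runs of at least 10 gained regions against 2 of lost regions. The longest run of gains held 31 regions over 519.4 kb of chromosome 9, from 139837801 to 140357200, with a median log2 size of 0.48. A run of 20 lay on chromosome 19, from 1053201 to 1316250, with a median of 0.46. A run of 17 on chromosome 2, from 239754401 to 239976050, differed from these by its size, with a median of 1.07. The longest run of losses held 13 regions, on chromosome 7 from 47455001 to 47650750, and the next was the chromosome 15 locus with 10.

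A stretch of chromosome 11 held both directions side by side, and 3 of its regions were among the 10 highest-scoring of their direction. At its left end 4 regions between 2014301 and 2023650 were lost. The strongest, 2018451 to 2020700, had control values of 996, 960 and 1123 and knockout values of 400, 216 and 549 in the authors' deposited table, a log2 ratio of control over knockout of 1.40. At its right end 5 regions between 2057951 and 2162700 were gained. Of these, 2148551 to 2151700 had knockout values of 3010, 2731 and 2252 and control values of 1743, 1630 and 1806 in the deposited table, and 2160151 to 2162700 had 1851, 2168 and 2234 against 1394, 1353 and 1193. Their log2 ratios of knockout over control were 0.63 and 0.67, and the other 3 gained regions had overlapping groups. At PP the same stretch with 10 kb on each side held 2 lost and 18 gained regions, at ESC 7 and 4, at DE 1 and 4 and at GT 0 and 2. Over all autosomes, losses made up 11.4% of listed regions at PP, 42.9% at ESC, 37.2% at DE and 27.1% at GT. The PP counts of the stretch were thus near the share of that stage. The stretch was singled out after its values were seen.

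Most losses at PE were listed at no other stage, while gains recurred more often in the full lists. Of the control-higher regions 78.0% overlapped no region of another stage, and of the knockout-higher regions 56.4%. A region in the same direction at another stage was found for 10.05% of the losses (708) and 36.4% of the gains (1989). An opposite one was found for 13.7% (967) and 13.0% (712). Regions listed only at PE had larger differences than the others, with a median log2 size of 1.01 against 0.68 for losses and 0.72 against 0.51 for gains. They were also narrower, with median widths of 600 against 950 bp and 750 against 1150 bp. A narrower region has less room for an overlap, and what this contributes was not tested. Gains also had longer lists to meet, with 11341 gains against 8516 losses at ESC and 11810 against 7004 at DE. At GT the lists held 7500 gains and 2783 losses, and at PP 24647 and 3158. With lists of equal length, given below, the same-direction shares were close at GT and PP. At ESC and DE they stayed higher for gains. With a -log10 p of at least 10 in both lists, also given below, the PP share was higher for gains too.

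With the full lists, gains overlapped PP, the next stage, more often than any other stage. With lists of equal length the order turned, and 7.04% met an ESC gain against 4.32% a PP gain. With a -log10 p of at least 10 in both lists the 2 shares were close, at 10.16% and 10.01%. Of the PE losses, 4.81% (4.34 to 5.34) were also losses at PP and 6.07% (5.54 to 6.66) were gains there. Of the PE gains, 17.6% (16.6 to 18.6) were gains at PP and 2.27% (1.91 to 2.70) were losses. Seen from PP, 10.8% of its lost regions overlapped a PE loss and 3.97% of its gained regions a PE gain. The PP list of gains is the longest of the series, with 24647 autosomal regions against 3158 losses. With all lists of other stages cut to their 2783 highest-scoring regions, 4.39% of PE losses were losses at PP and 1.02% gains, and 4.32% of PE gains were gains there and 1.92% losses. With lists of equal length, the same-direction share at PP was thus about as high for losses as for gains. That cut keeps most PP losses but only the highest-scoring small part of PP gains, so the 2 lists differ in stringency. With a -log10 p of at least 10 in both lists, 10.01% of PE gains were gains at PP and 6.09% of PE losses were losses there.

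The higher the -log10 p of a loss at PE, the more often it was also a loss at PP. The share was 2.36% of 2626 losses with a -log10 p between 5 and 6, 15.3% of 536 between 12 and 20, and 24.7% of 215 at 20 or above. Losses that were gains at PP went from 6.51% to 2.33% over the same classes. For gains at PE, the share that were gains at PP went from 15.5% to 54.0% of the 50 with the highest values. Median widths rose too, from 550 to 1000 bp for losses and from 750 to 1600 bp for gains, and their part in this was not tested.

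With the full lists, overlaps before pancreatic commitment were also more common for gains. At ESC, 13.6% of PE gains were already gains and 2.72% of PE losses already losses. At DE the shares were 8.96% and 2.10%, and at GT 3.99% and 1.53%. With lists of other stages cut to equal length, gains met gains in 7.04% at ESC, 3.16% at DE and 1.72% at GT, and losses met losses in 0.97%, 1.05% and 1.53%. Among the 10 highest-scoring gains, 5 were also gains at ESC, 3 at DE, 1 at GT and 8 at PP. Among the 10 highest-scoring losses, 5 were also losses at ESC, 5 at DE, 2 at GT and 7 at PP. The ESC and DE counts include the neighbouring chromosome 15 regions from 53075451 and 53080951, which met the same ESC region, 53075501 to 53082400. Opposite listings were rarer: 1 of the 10 losses, on chromosome 15 from 53080951, also touched an ESC gain, and 1 of the 10 gains, on chromosome 2 from 239179801, a DE loss.

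A few regions kept their direction at all 5 stages. They were 3 losses, of which chromosome 19, 28283951 to 28285750, had control values of 1540, 1580 and 2099 and knockout values of 1205, 972 and 891 at PE in the authors' deposited table. The 5 gains included chromosome 10, 38383101 to 38383950, with knockout values of 298, 302 and 455 and control values of 104, 107 and 73 at PE in the deposited table. Another was chromosome 22, 18879901 to 18880250, with 232, 279 and 225 against 42, 95 and 53. The highest-scoring gain, on chromosome 19 from 37742351, was also among them, with log2 ratios of knockout over control of 1.72 at ESC, 1.38 at DE, 1.25 at GT and 1.76 at PP, against 2.48 at PE. Another region of that chromosome, 24097451 to 24098200, was a gain at ESC, DE, PE and PP but in no GT list. Its knockout values were 459, 657 and 538 and its control values 216, 154 and 212 at PE in the authors' deposited table, and the log2 ratios of knockout over control were 1.20 at ESC, 1.06 at DE, 1.502 at PE and 1.73 at PP. Among the losses, chromosome 2, 114360901 to 114362050, had larger differences at the pancreatic stages, with log2 ratios of control over knockout of 1.01 at ESC, 1.20 at DE, 1.03 at GT, 2.15 at PE and 2.34 at PP. This difference between stages was not tested.

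**Figure D5:**
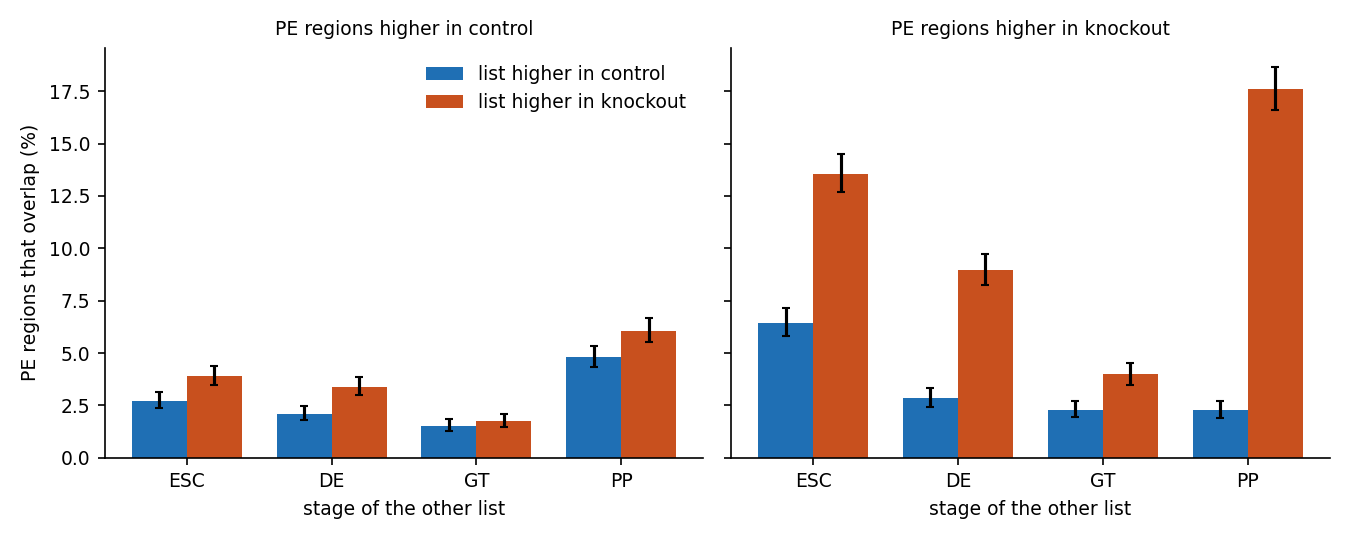
Percent of PE regions higher in control (left) and higher in knockout cells (right) that share at least 1 bp with a region listed at another stage, by the direction of that list, with 95% Wilson intervals. PE gains overlap PP gains in 17.6% of cases, and PE losses overlap either PP list in 4.81% and 6.07%.

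The authors' 9 clusters of wild-type peaks, each a set of regions whose profile is not described in the sources used here, were met unevenly. Control-higher regions overlapped 18.4% of cluster 8 (519 of 2817; 17.0 to 19.9) and 16.4% of cluster 4 (441 of 2687; 15.1 to 17.9). Knockout-higher regions overlapped 3.87% and 3.20% of the same clusters. Cluster 2 had the same order, with 5.72% overlapped by losses and 1.30% by gains. In clusters 1, 3, 5, 6 and 7 the order was the other way. Gains met 10.7% of cluster 5 and 10.9% of cluster 6, and losses 4.41% and 7.08%. For clusters 1, 3 and 7 the shares were 7.18%, 3.33% and 4.91% for gains and 5.04%, 1.10% and 1.27% for losses. Cluster 9 was met least, by 1.02% for losses and 0.79% for gains, with overlapping intervals. Clusters 4 and 8 thus held most of the wild-type regions that lost accessibility at PE.

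Losses inside clusters had smaller ratios than losses elsewhere. Of all control-higher regions, 18.4% overlapped any cluster, with a median log2 size of 0.61 against 1.03 for those outside. Of the knockout-higher regions, 14.3% did, with medians of 0.48 and 0.64. The lost regions inside clusters had a median of 571 per kb in control and 362 per kb in knockout cells, and those outside 326 and 159 per kb. Their median width was 1000 bp inside and 600 bp outside, and the part of width and level in the smaller ratios was not tested. At a -log10 p of at least 10, 34.4% of losses and 19.04% of gains overlapped a cluster.

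The lists end at a -log10 p of 5. Just inside it, the chromosome 18 region 21692851 to 21693400 had control values of 505, 390 and 526 and knockout values of 382, 334 and 282 in the authors' deposited table, a log2 ratio of 0.51. On the other side, chromosome 9, 139638201 to 139639500, had knockout values of 394, 313 and 286 and control values of 247, 260 and 139 in the deposited table. Regions below the threshold were not analysed here.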

How the data were processed

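Per the labels, Nextera tagmentation libraries were made from 3 control and 3 HNF6 knockout samples at PE. Bowtie2 and MACS2 with hg19 are named in the submitters' processing notes, and for the differential caller, read shift and scaling none is given in the sources used here. The authors' deposited lists hold, per region, other values of unstated unit (3 per genotype) and a log2 ratio with 1 added to each mean. Which 3 values are control was read from the list names and the sign of the ratio. Depth is unknown, no 2 samples of 1 genotype shared more than 1% of values, and no column was left unused for belonging to another sample. Overlaps needed 1 shared bp, and all counts, medians and Wilson intervals were computed in Python 3.11.15 with pandas 2.3.3. The code was tested on simulated lists. Members and rules were chosen with earlier results of these data known. Named regions are the 10 highest by -log10 p and the 5 largest log2 ratios (separate groups, higher mean at least 50) per direction, those within 100 kb of the chromosome 15 stretch, the 5 highest that overlap PP for each pair of directions, and the extreme autosomes. Gene lists and motifs were not run, since no hg19 genome or annotation was used here.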

Additional observations from a re-analysis of the deposited data

Results flagged for a closer look

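6 pairs of regions had separate groups at PE and at PP but in opposite directions. They come from the 5 highest-scoring overlaps of each such combination, and the difference between the stages was not tested. All ratios are log2 of control over knockout. The chromosome 11 region starting at 6340251 had 0.75 at PE and its PP partner -0.75, with 500 bp shared. A second one on chromosome 11, starting at 59643401, had 1.01 and -0.78 over 300 bp. The chromosome 15 region starting at 53615301 had 1.35 and -0.83 over 600 bp, the whole of the PE region, and its mean values were 386 in control and 150.3 in knockout cells at PE and 324 and 577 in the PP partner. The other 3 went from a gain to a loss. On chromosome 9 the region starting at 91002901 had -0.46 at PE and 0.42 at PP over 450 bp, and on chromosome 19 the region starting at 1275401 had -0.46 and 0.38 over 800 bp. The last, on chromosome 19 from 2841601, had -0.79 and 0.26 with only 100 bp shared. Except on chromosome 15, the shared part was the smaller part of the PE region. Those PE regions were 2150, 1350, 1550, 1700 and 800 bp wide, in the order given. The 2 values of each of these pairs thus describe in large part different sequence.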

How the results depend on the processing

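Leaving out each value in turn kept the direction of all 12515 regions but 1, and the control-higher share was 56.3% in each case. The list itself stayed as chosen on these same values, so direction and share had little room to change. That share was 62.5% at a -log10 p of at least 10, 72.8% at 2-fold or more, 57.9% with separate groups, 60.3% with 1 region per 100 kb block and 49.1% by base pairs. Chosen after seeing the data, equal weight to each autosome gave 57.96%, and leaving out chromosome 12 or 3 gave 54.7% or 57.98%. Chromosome 19 moved to 30.8% at the stricter p and 40.5% at 2-fold, and chromosome 18 to 98.2% and 93.1%. The median log2 size with 10 added was 0.89 for losses and 0.59 for gains. Without 1 value it ran from 0.88 to 1.00 for losses and from 0.59 to 0.62 for gains. The share with separate groups was 93.7% and 87.6% at the stricter p. Without 1 value, which makes separation easier, it ran from 82.2% to 91.1% for losses and from 80.3% to 83.7% for gains. PE losses that were losses at PP made up 4.03% with the centre rule and 6.09% at the stricter p in both lists. PE losses that were gains at PP made up 4.94% when 50% of the shorter region had to be shared, 4.20% by centre, 0.59% at the stricter p and 1.02% with lists of equal length. For PE gains that were losses at PP the values were 1.499%, 1.06% and 0.42% under the first 3 of these. For PE gains that were gains at PP they were 15.1%, 13.3%, 10.01% and 4.32% under all 4. Overlap with any cluster was 17.2% of losses and 12.4% of gains when 50% of the cluster region had to be shared, 17.1% and 12.4% by its centre, and 34.4% and 19.04% at the stricter p. Neighbours shared a direction in 72.9% of cases within 10 kb and 67.6% within 200 kb. None of 368 recomputed ratios of the 46 named regions turned, but these regions had mostly been picked for a high score or a large ratio. No paired analysis was possible because the deposited values carry no replicate numbers and no test was run. Gene lists and motifs were not run. Unknown depth limits what low regions show, and the causes of these moves were not tested.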
